A study of Mus musculus with 2 samples.

Results

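A set of 8 genes from the ligand side of T cell costimulation and checkpoint control was examined in the myeloid cells of TSA mammary tumours: Cd274, Pdcd1lg2, Cd80, Cd86, Cd40, Lgals9, Tnfsf9 and Icosl. They were taken by symbol as 8 of the 27998 genes counted, and read in macrophage subsets, Ly6c2 monocytes, dendritic types and osteoclast-like cells that were gated by UMIs of marker genes. TSA is a mouse mammary carcinoma line, injected subcutaneously into Balb/c mice, so the tumours are transplants of 1 line away from the mammary gland. Both groups carried such tumours and differed in the drinking water: untreated mice drank it plain, and NAM (nicotinamide, a form of vitamin B3) was added at 0.5% for 10 days in the other group. Tumours of 3 mice per group were pooled before the CD45+ cells (leukocytes) were separated on magnetic beads, which made 1 library per group. The labels give no age for the mice. With 1 library per group no test can be made, and every interval below covers counting error only. NAM and the library (its pool of mice, its tumours and its preparation) cannot be told apart.

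A T cell needs a signal from a partner receptor besides the one from its antigen receptor, and antigen-presenting cells supply it through surface ligands. CD80 and CD86 bind CD28, which activates, and CTLA-4, which restrains. PD-L1 and PD-L2 bind the inhibitory receptor PD-1. In tumours these ligands are best known from dendritic cells and macrophages, where interferon gamma is the classical inducer of PD-L1 and engagement of CD40 drives dendritic cells to mature.

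The untreated library held 2922 cells with a median of 9056 UMIs, and the NAM library 3276 cells with a median of 9128 UMIs. The libraries shared 11 cell barcodes. Gates took in 2415 cells (82.6%) of the untreated and 2665 (81.3%) of the NAM library, that is 5080 of 6198. Cells with at least 20 UMIs of the complement genes C1qa, C1qb and C1qc were called macrophage-like (1974 untreated, 2195 NAM) and were divided into 6 subsets named after their gate genes, of which 5 are described singly. Cells below that limit were called Ly6c2 monocyte-like (193 and 211), cDC1-like from Xcr1, Clec9a and Wdfy4 (29 and 30), mature dendritic-like from Ccr7, Fscn1 and Cacnb3 (37 and 25) or Cd209a dendritic-like (26 and 35). Cells with at least 20 UMIs of Ctsk, Acp5 and Mmp9 were called osteoclast-like (156 and 169). Check markers that their own gate did not use (Ccr2 and Zbtb46 among them were gate genes elsewhere) were highest in their own gate in both libraries for 7 of 7 monocyte genes, 5 of 5 cDC1 genes and 5 of 6 mature dendritic genes. This held for only 4 of 7 macrophage genes and 3 of 5 Cd209a dendritic genes: Csf1r and Cd68 were among those higher in another class in at least 1 library, and Ccr2 and Tnip3 were not highest in Cd209a dendritic-like cells. Flt3 and Zbtb46, which that gate also used, were not highest there either, so it rested mainly on Cd209a. Levels are given as CPM, the UMIs of a gene per 1000000 UMIs of the gate. A 3′ UMI count has no length term, so levels are compared for 1 gene between gates and not between genes.

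The 8 genes were counted in very different amounts in the 5080 gated cells. Cd86 gave 7680 UMIs in 3269 cells, Lgals9 gave 5779 in 2799 cells, Tnfsf9 gave 5425 in 1672 cells and Cd40 gave 4644 in 2170 cells. Cd274 gave 2248 UMIs in 1405 cells and Cd80 gave 1027 in 795 cells. Pdcd1lg2 and Icosl were sparse, with 538 UMIs in 378 cells and 507 in 446 cells. Of the 45 pairs that 10 gates form, the intervals stood apart in the same order in both libraries for 33 pairs for Cd86, for 27 for Lgals9, for 25 each for Cd40 and Cd80, for 24 for Tnfsf9, for 23 for Cd274, for 14 for Pdcd1lg2 and for 9 for Icosl. The gates thus differed clearly in Cd86 and hardly in Icosl at this depth.

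**Figure D1:**
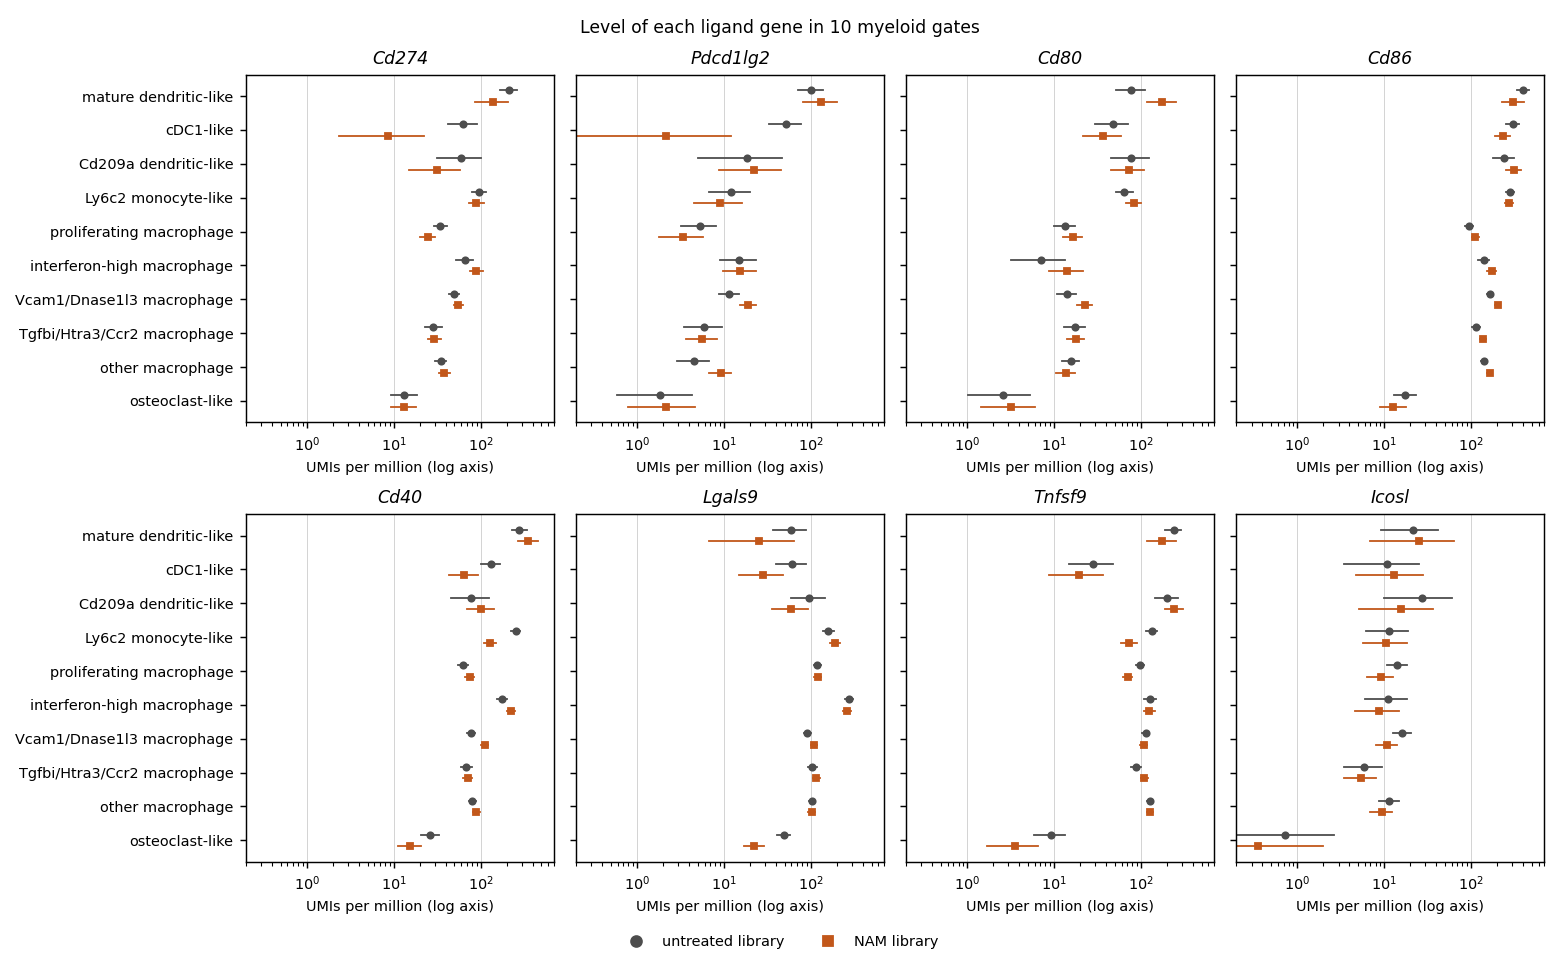
Level of each gene in 10 gates, in CPM on a log axis; circles are the untreated and squares the NAM library, and lines are exact Poisson 95% intervals, cut at the axis limit where they reach below it. Cd274, Pdcd1lg2 and Cd40 were highest in mature dendritic-like cells in both libraries, Lgals9 in interferon-high macrophages, and every gene was lowest in osteoclast-like cells except Cd274 with NAM, which was lowest in cDC1-like cells.

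Cd274 encodes PD-L1 and lies on chromosome 19 (chr19:29367455-29388095, plus strand, mm10). Mature dendritic-like cells had the highest level in both libraries, 211 CPM (167 to 263, 79 UMIs) untreated and 138 CPM (86.5 to 209, 22 UMIs) with NAM. Monocyte-like cells followed at 95.3 CPM untreated and 89.4 CPM with NAM, and interferon-high macrophages at 65.9 and 89.2 CPM. Those neighbours in the order overlapped in their intervals in at least 1 library. The remaining macrophage subsets lay between 24.6 and 55.4 CPM, with Vcam1/Dnase1l3 macrophages at 49.7 and 55.4 CPM and Tgfbi/Htra3/Ccr2 macrophages at 28.7 and 29.4 CPM. Osteoclast-like cells had 13.2 CPM in each library. The genes whose level was most like that of Cd274 over the 20 values (10 gates in 2 libraries) were Arl5c (r = 0.916), Rapgef2 (r = 0.879) and Ccl5 (r = 0.878), a T cell attractant. All such correlations are descriptions over points that share a library and a depth.

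Pdcd1lg2 encodes PD-L2, the second PD-1 ligand. It starts 22823 bases beyond the end of Cd274 on the same strand (chr19:29410919-29471161), with the antisense gene A930007I19Rik inside it. Mature dendritic-like cells again led, with 102 CPM (71.9 to 139, 38 UMIs) untreated and 132 CPM (81.5 to 201, 21 UMIs) with NAM. No macrophage subset was above 19.2 CPM, the value of Vcam1/Dnase1l3 macrophages with NAM. After thinning each cell to 3000 UMIs, 32.4% of mature dendritic-like cells untreated and 32.0% with NAM had a Pdcd1lg2 UMI, against 2.38% and 3.14% of macrophage-like cells. Its likest genes were Mmp25 (r = 0.914), Mif4gd (r = 0.894) and Samsn1 (r = 0.892).

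The balance between the PD-1 ligands differed between gates. Pdcd1lg2 made up 32.5% (24.1 to 41.8) of the UMIs of both genes in mature dendritic-like cells untreated and 48.8% (33.3 to 64.5) with NAM. In macrophage-like cells the share was 16.0% (13.7 to 18.4) and 20.5% (18.3 to 22.9). In monocyte-like cells it was 11.3% (6.45 to 17.9) and 9.17% (4.67 to 15.8). The mature dendritic-like share was above the share of the macrophage-like and monocyte-like cells in both libraries, with intervals that did not overlap. Within macrophages the share was 25.7% in Vcam1/Dnase1l3 cells with NAM, against 18.9% untreated, with intervals that overlapped.

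Cd80 and Cd86 encode the ligands of CD28 and CTLA-4 and lie on the same chromosome (Cd80 at chr16:38455561-38496335, plus strand; Cd86 at chr16:36603869-36666081, minus strand). Cd86 was the broader of the pair. It stood at 401 CPM (340 to 471, 150 UMIs) untreated and 307 CPM (227 to 406, 49 UMIs) with NAM in mature dendritic-like cells, and at 302 and 234 CPM in cDC1-like cells. Cd209a dendritic-like cells had 239 CPM untreated and 311 CPM with NAM, and monocyte-like cells 280 and 275 CPM. Untreated, the mature dendritic-like cells stood above the monocyte-like and Cd209a dendritic-like cells with intervals apart, while with NAM the intervals of all 4 gates overlapped and Cd209a dendritic-like cells came first. The 5 macrophage subsets described were lower than the monocyte-like cells in both libraries, from 96.2 CPM in proliferating to 165 CPM in Vcam1/Dnase1l3 macrophages untreated, and from 112 to 202 CPM with NAM in the same subsets. Osteoclast-like cells had 17.6 and 12.9 CPM. Cd86 UMIs were found in 30.7% of macrophage-like cells untreated and 37.2% with NAM after thinning (63.8% and 69.3% unthinned). In lymphocytes, read as a background, of which 0 had a UMI of the B cell genes Cd79a or Ms4a1, the thinned share was 6.23% and 4.52% (9.52% and 7.74% unthinned), at median totals of 4671 and 4409 UMIs against 9793 and 9817 in macrophages. Genes with the likest pattern were Sowahc (r = 0.960), Dusp5 (r = 0.957) and Pim1 (r = 0.956).

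Cd80 had its highest levels outside the macrophages. Mature dendritic-like cells had 77.6 CPM (52.0 to 111, 29 UMIs) untreated and 176 CPM (117 to 254, 28 UMIs) with NAM. Cd209a dendritic-like cells had 78.0 and 72.3 CPM, monocyte-like cells 64.6 and 82.9 CPM, and cDC1-like cells 47.4 and 36.8 CPM. No macrophage subset was above 22.6 CPM, the value of Vcam1/Dnase1l3 macrophages with NAM. Crem (r = 0.958), Kpna4 (r = 0.954) and Pvr (r = 0.949), the last a ligand of TIGIT and CD226, were the genes most like it. The share of Cd80 in the UMIs of Cd80 and Cd86 was 18.7% (15.1 to 22.8) in monocyte-like cells untreated and 23.2% (19.3 to 27.4) with NAM, and 9.83% (8.79 to 10.96) and 9.95% (9.04 to 10.9) in macrophage-like cells. Interferon-high macrophages had the lowest share untreated, 4.81% (2.22 to 8.94), and 7.58% (4.75 to 11.4) with NAM. The difference between monocyte-like and macrophage-like cells thus lay outside counting error in both libraries.

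**Figure D2:**
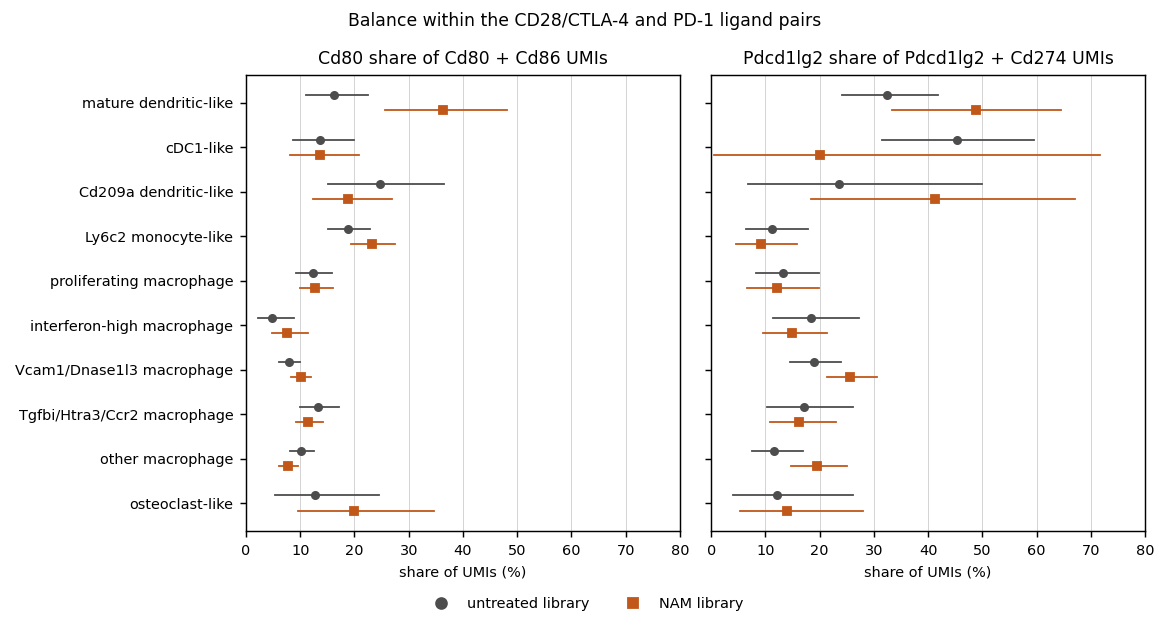
Share of Cd80 in the UMIs of Cd80 and Cd86 (left) and of Pdcd1lg2 in the UMIs of Pdcd1lg2 and Cd274 (right) in 10 gates, in percent; circles are the untreated and squares the NAM library, lines are exact Clopper-Pearson 95% intervals. The Cd80 share of mature dendritic-like cells was 16.2% untreated and 36.4% with NAM, and the Pdcd1lg2 share of cDC1-like cells with NAM rests on 5 UMIs.

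Cd40 (chr2:165055627-165072948, plus strand) encodes the receptor through which CD40 ligand on T cells licenses antigen-presenting cells. Mature dendritic-like cells led in both libraries, with 278 CPM (227 to 337, 104 UMIs) untreated and 351 CPM (265 to 456, 56 UMIs) with NAM. Untreated, this overlapped the 252 CPM of the monocyte-like cells. Among macrophages, the interferon-high subset stood above the other 4 in both libraries, with 177 CPM (155 to 202) untreated and 222 CPM (199 to 248) with NAM. The other macrophage subsets ranged from 62.9 to 80.5 CPM untreated and from 71.0 to 111 CPM with NAM. Thinned shares were 36.0% and 45.6% of interferon-high macrophages, 18.9% and 20.9% of all macrophage-like cells, and 1.83% and 1.61% of lymphocytes. A few cells held most of the lymphocyte UMIs: untreated, 5 cells had 84.6% of those of Cd40 and 52.9% of those of Cd86. Its likest genes were Ndrg1 (r = 0.904), the transcription factor Etv6 (r = 0.897) and Tapbp (r = 0.896), which loads peptide on MHC class I.

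Tnfsf9 (chr17:57105325-57107757, plus strand, overlapped by the antisense gene Gm11110) encodes the ligand of the T cell receptor 4-1BB. Its levels were 238 CPM (191 to 293, 89 UMIs) untreated and 176 CPM (117 to 254, 28 UMIs) with NAM in mature dendritic-like cells. In Cd209a dendritic-like cells they were 202 CPM (147 to 271) and 242 CPM (191 to 303), so these gates changed places between the libraries with overlapping intervals. The cDC1-like cells had 28.0 and 19.5 CPM, below all gates except the osteoclast-like cells (9.17 and 3.57 CPM). Interferon-high macrophages had 127 and 125 CPM and proliferating macrophages 98.3 and 70.9 CPM. Of the 8 genes Tnfsf9 reached the highest count in a single macrophage, 44 UMIs untreated and 39 with NAM, followed by Cd86 with 18 untreated and Cd40 with 20 with NAM. Ctsh (r = 0.964), Rgs1 (r = 0.952) and Gpr18 (r = 0.925) were most like it.

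Icosl (chr10:78069302-78083913, plus strand) encodes the ligand of ICOS. It was low in every gate, at most 27.5 CPM (10.1 to 59.9, 6 UMIs) in Cd209a dendritic-like cells untreated. Macrophage-like cells had 12.1 CPM (10.6 to 13.7, 248 UMIs) untreated and 8.51 CPM (7.35 to 9.79, 195 UMIs) with NAM. Osteoclast-like cells and Tgfbi/Htra3/Ccr2 macrophages were the lowest, the latter at 5.94 and 5.46 CPM. Most neighbours in its order could not be told apart. Cd83 (r = 0.931), a dendritic activation marker, was the gene most like it, followed by Ncf1 (r = 0.923) and Synj1 (r = 0.921).

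Lgals9 encodes galectin-9, a secreted and surface lectin that binds TIM-3 among other partners (chr11:78962974-78984946, minus strand). It had an order unlike that of the other 7 genes, with interferon-high macrophages and monocyte-like cells at the top and mature dendritic-like and cDC1-like cells near the bottom. Interferon-high macrophages had 274 CPM (246 to 304, 349 UMIs) untreated and 261 CPM (235 to 288, 386 UMIs) with NAM, above every other gate in both libraries. Monocyte-like cells were next with 159 CPM (138 to 183) and 191 CPM (167 to 217). The other macrophage subsets lay between 91.7 and 119.5 CPM untreated and between 102 and 121 CPM with NAM. Mature dendritic-like cells, which led for Cd274, Pdcd1lg2 and Cd40, had 58.9 CPM (36.9 to 89.1) untreated and 25.1 CPM (6.84 to 64.2, 4 UMIs) with NAM. Over the 20 values the correlation of Lgals9 with the other members lay between -0.093 (Cd80) and 0.494 (Tnfsf9), while Cd86 and Icosl had 0.899 and Cd274 and Cd40 had 0.867. The genes most like Lgals9 were Cxcl10 (r = 0.921), an interferon-induced chemokine, Trim30d (r = 0.913) and 1600014C10Rik (r = 0.908), of which none was used by a gate.

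Because Lgals9 stood highest in the interferon-high gate, the promoters of Lgals9 and of Cd274 are shown. RefSeq (GRCm38.p6) gave a promoter of 300 bases, from 250 before to 50 after the start, for 5 of the 8 genes (Cd274, Cd80, Icosl, Lgals9 and Pdcd1lg2), and Cd86, Cd40 and Tnfsf9 were not analysed here. The letters searched on both strands were 2 copies of GAAA with any 2 bases between them, the core of the interferon-stimulated response element, and TTCNNNGAA, the core of the gamma-activated site. Capitals mark matches, written 5′ to 3′ along the gene.
Lgals9 (chr11:78984875-78985174, minus strand): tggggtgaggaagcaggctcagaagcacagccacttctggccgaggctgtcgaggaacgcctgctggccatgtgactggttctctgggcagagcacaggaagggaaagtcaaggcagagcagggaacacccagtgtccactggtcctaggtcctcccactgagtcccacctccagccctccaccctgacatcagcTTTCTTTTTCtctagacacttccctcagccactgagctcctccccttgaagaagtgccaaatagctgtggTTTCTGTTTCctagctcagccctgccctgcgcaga
Cd274 (chr19:29367188-29367487, plus strand): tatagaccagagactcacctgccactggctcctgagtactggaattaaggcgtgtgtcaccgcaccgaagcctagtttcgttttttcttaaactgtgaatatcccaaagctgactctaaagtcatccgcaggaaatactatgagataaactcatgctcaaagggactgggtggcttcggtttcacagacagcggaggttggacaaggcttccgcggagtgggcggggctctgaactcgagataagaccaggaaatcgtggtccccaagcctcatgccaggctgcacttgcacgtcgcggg
The Lgals9 window held 2 matches to the paired GAAA on the opposite strand, beginning 55 bases before and 15 bases after the start, and none to TTCNNNGAA. The windows of the other 4 genes held neither. Of the 32851 promoters in the table, 3.44% held the first motif and 8.3% the second. A match is a description of letters and not a bound site.

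Single cells were next compared for how many of the 8 genes they carried, with each cell thinned to 3000 UMIs and no cell left out. Mature dendritic-like cells carried most, a mean of 2.60 genes (37 cells) untreated and 2.64 (25 cells) with NAM. UMIs of at least 3 genes were found in 54.1% (36.9 to 70.5) of them untreated and in 52.0% (31.3 to 72.2) with NAM. Monocyte-like cells had means of 1.86 and 1.78 genes and at least 3 genes in 29.0% (22.7 to 36.0) and 28.0% (22.0 to 34.5). Interferon-high macrophages had means of 1.63 and 1.86, and macrophage-like cells as a whole 1.17 and 1.23. Osteoclast-like cells had means of 0.295 and 0.272, with none of 156 and none of 169 cells carrying 3 genes, which allows up to 2.34% and 2.16% of cells with such UMIs at this depth. Lymphocytes had means of 0.769 and 0.761, to which Pdcd1lg2, Lgals9 and Cd274 gave most. The share of macrophage-like cells with at least 2 genes was 32.0% (30.0 to 34.1) untreated and 35.7% (33.7 to 37.7) with NAM.

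**Figure D3:**
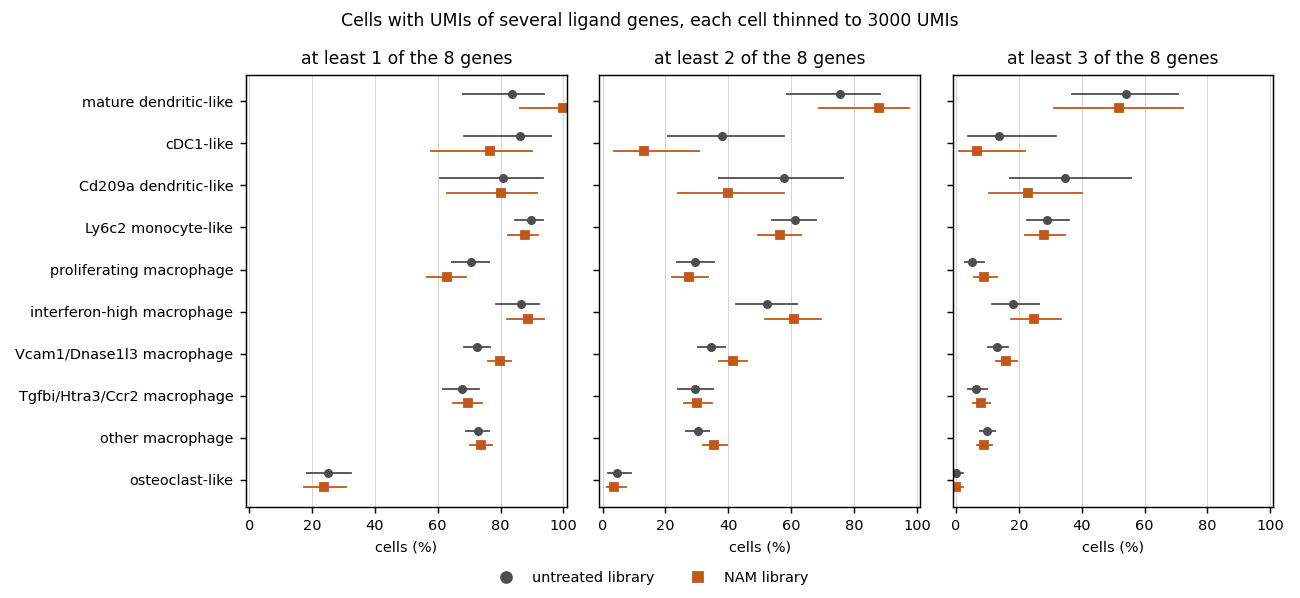
Share of cells (percent) with UMIs of at least 1, 2 or 3 of the 8 genes after thinning to 3000 UMIs per cell, in 10 gates; circles are the untreated and squares the NAM library, lines are exact Clopper-Pearson 95% intervals. Mature dendritic-like cells carried at least 3 genes in 54.1% and 52.0% of cells and osteoclast-like cells in none.

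Pairs of genes were read in the same thinned cells. In mature dendritic-like cells untreated, 10 of 20 cells with a Cd274 UMI also had a Pdcd1lg2 UMI, against 11.8% of those without Cd274, but with NAM the values were 30.0% and 33.3%. In macrophage-like cells, Cd40 was found in 27.6% of the cells with Cd274 and 17.9% of those without it untreated, and in 30.7% and 19.7% with NAM. This pools subsets. Interferon-high macrophages had 44.4% and 34.4% untreated but 42.9% and 46.4% with NAM. Proliferating macrophages had 13.6% and 13.2% untreated and 47.1% and 17.9% with NAM. Vcam1/Dnase1l3, Tgfbi/Htra3/Ccr2 and other macrophages had the higher share with Cd274 in both libraries. Cd80 and Cd274 showed no such excess in macrophage-like cells, with 5.24% against 4.65% untreated and 4.2% against 4.45% with NAM. These shares describe cells of 1 library each and carry no test.

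The NAM and untreated libraries were then compared within each class. A member was counted as past the fold where its CPM with NAM, divided by its CPM untreated, gave a log2 value beyond 0.5 either way with at least 50 UMIs over both libraries. In macrophage-like cells 1 of 8 members was past the fold upward and 1 downward, where 2.52% of 10755 genes were past it upward and 7.2% downward. In monocyte-like cells it was 0 of 6 upward (6.97% of 4359 genes) and 2 of 6 downward (10.8%). In mature dendritic-like cells it was 1 of 6 upward (14.1% of 1392 genes) and 1 of 6 downward (23.5%), shares close to the background. In cDC1-like cells it was 0 of 2 upward (15.5% of 2114 genes) and 1 of 2 downward (10.9%). In Cd209a dendritic-like cells neither Cd86 nor Tnfsf9, the 2 members with enough UMIs, was past the fold, where 10.7% of 1377 genes were upward and 12.4% downward. In osteoclast-like cells it was 0 of 4 upward (3.87% of 6952 genes) and 2 of 4 downward (8.73%). The median log2 ratio of all genes lay between -0.08 and 0.10 in the 6 classes.

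**Figure D4:**
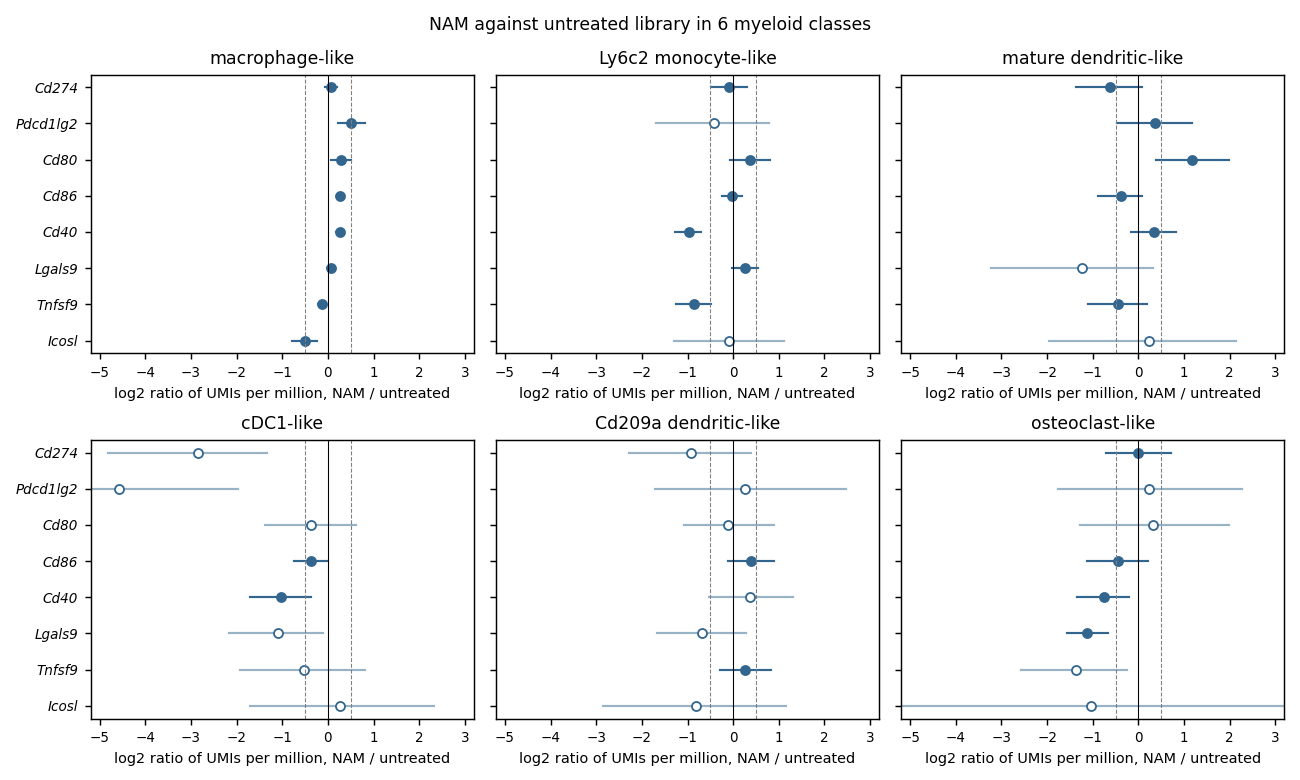
Log2 ratio of CPM, NAM over untreated, for the 8 genes in 6 classes; lines are exact conditional binomial 95% intervals (counting error only, cut at the axis limits), filled points have at least 50 UMIs over both libraries, open points fewer, and dashed lines mark 0.5 either way. Cd40 and Tnfsf9 in monocyte-like cells lie at -0.98 and -0.87 with intervals clear of 0, and Cd40 in macrophage-like cells at 0.26.

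In macrophage-like cells as a whole, Cd274 and Lgals9 differed little between the libraries. Cd274 had 40.3 CPM (37.6 to 43.1) untreated and 42.0 CPM (39.4 to 44.8) with NAM, a log2 ratio of 0.06 (-0.07 to 0.20). Among the subsets it was higher with NAM in interferon-high (0.44, 0.03 to 0.85) and lower in proliferating macrophages (-0.48, -0.88 to -0.09), with intervals across 0 in the other 3 described. Lgals9 had 113 and 118 CPM, a log2 ratio of 0.06 (-0.02 to 0.14). The bounds of the 2 ratios over all macrophage-like cells leave room for a difference of at most 0.20 in log2 from counting error. Cd86 had 131 CPM (126 to 136) and 158 CPM (153 to 163), a log2 ratio of 0.27 (0.19 to 0.34), and was higher with NAM in the 5 subsets described, by 0.22 to 0.31. With thinned cells the value in proliferating macrophages was -0.080 (-0.53 to 0.37). Cd40 had 78.3 and 94.0 CPM, a log2 ratio of 0.26 (0.17 to 0.36), and was also higher in these 5, from 0.05 in Tgfbi/Htra3/Ccr2 to 0.51 (0.32 to 0.70) in Vcam1/Dnase1l3 macrophages. Over all macrophage-like cells these offsets exceeded counting error and stayed under the fold, while the Vcam1/Dnase1l3 value of Cd40 was just past it (0.29 to 0.47 in 4 of the 8 settings tried) and the Cd40 intervals of Tgfbi/Htra3/Ccr2 and other macrophages took in 0. The Tgfbi/Htra3/Ccr2 value of Cd40 lay between -0.28 and 0.21 over the settings tried. Cd80 had 14.3 and 17.5 CPM, a log2 ratio of 0.29 (0.07 to 0.51), and was past the fold in Vcam1/Dnase1l3 macrophages (0.68, 0.23 to 1.14; 0.26 with thinned cells). With cells thinned to 3000 UMIs its ratio over all macrophage-like cells was -0.096 (-0.51 to 0.32), so its direction was not stable.

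The members past the fold in macrophages were both sparse. Pdcd1lg2 had 7.64 CPM (157 UMIs) untreated and 10.9 CPM (249 UMIs) with NAM, a log2 ratio of 0.51 (0.21 to 0.80). It was higher with NAM in other macrophages (1.02, 0.27 to 1.81) and in Vcam1/Dnase1l3 macrophages (0.72, 0.23 to 1.23), and had log2 ratios of -0.64 to 0.06 in the other 3 subsets, each with an interval across 0. Icosl had a log2 ratio of -0.51 (-0.78 to -0.23) and lay below 0 in the 5 subsets described, with an interval clear of 0 only in Vcam1/Dnase1l3 macrophages (-0.59, -1.12 to -0.06). Both ratios sat at the fold: without the 7 macrophages that held at least 5 globin UMIs they were 0.48 and -0.50, and neither passed. Tnfsf9 differed in direction between subsets, with -0.47 (-0.70 to -0.24) in proliferating and 0.33 (0.10 to 0.55) in Tgfbi/Htra3/Ccr2 macrophages. In proliferating macrophages 5 cells held 34.1% of the untreated UMIs of Tnfsf9, and the share of cells with a UMI was 34.9% untreated and 40.2% with NAM (14.5% and 13.9% thinned). The difference between subsets was not tested.

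In monocyte-like cells Cd40 and Tnfsf9 were lower with NAM, while the other 4 members with enough UMIs had intervals across 0. Cd40 had 252 CPM (225 to 282, 312 UMIs in 96 cells) untreated and 128 CPM (109 to 150, 156 UMIs in 88 cells) with NAM, a log2 ratio of -0.98 (-1.26 to -0.70). Tnfsf9 had 133 CPM (114 to 155, 165 UMIs) and 73.0 CPM (58.6 to 89.8, 89 UMIs), a log2 ratio of -0.87 (-1.26 to -0.49). The share of cells with a Cd40 UMI after thinning, 37.8% untreated and 31.8% with NAM, differed less than the level, and the highest cell held 19 and 8 UMIs. Without the 5 cells of each library highest in the gene and under the other settings, Cd40 stayed between -1.03 and -0.85. Cd274 (-0.09, -0.48 to 0.30), Cd86 (-0.03, -0.25 to 0.19), Cd80 (0.36, -0.08 to 0.80) and Lgals9 (0.26, -0.02 to 0.55) made up those 4. Globin UMIs (7056 with NAM against 24 untreated in this gate) came almost wholly from 1 cell with 6997, and without it the ratio of Cd40 was -0.96 and that of Tnfsf9 -0.85.

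Some genes of the CD40 and NF-kB list were also lower with NAM in the monocyte-like cells. Of the 10 list genes with enough UMIs, 0 were past the fold upward (6.97% of all genes) and 3 downward (10.8%), the third being Ebi3 with an interval across 0 (-0.53, -1.25 to 0.17), and the list's median was -0.43 against -0.03 over all genes. Nfkb1, which encodes the p105 precursor of NF-kB p50, had 275 CPM (340 UMIs) untreated and 83.7 CPM (102 UMIs) with NAM, a log2 ratio of -1.71 (-2.05 to -1.39). Traf1, an adaptor of CD40 and 4-1BB, had 246 and 141 CPM, a log2 ratio of -0.80 (-1.08 to -0.52). Icam1, an adhesion ligand for LFA-1, had 199 and 107 CPM, a log2 ratio of -0.89 (-1.20 to -0.58), as the 1 of 8 further ligands past the fold. In the interferon gamma list 2 of 11 genes were past the fold upward and 1 downward, against the same shares of all genes: Socs1, a feedback inhibitor, had 73.5 and 151 CPM (1.04, 0.67 to 1.42), Irf1 had 128 and 187 CPM (0.54, 0.24 to 0.84), and the kinase Jak2 had 58.2 and 27.1 CPM (-1.10, -1.74 to -0.49). So these genes of 1 list had both directions in the same cells.

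The same lists were read in macrophage-like cells. There 2.52% of all genes were past the fold upward and 7.2% downward. Of 17 CD40 and NF-kB genes 1 was past the fold upward and 1 downward, close to those shares: Il12b, a subunit of IL-12, had 2.29 and 4.36 CPM (0.93, 0.42 to 1.46), and Nfkb1 had 127 and 80.03 CPM (-0.67, -0.76 to -0.58). Il12b rested on a few cells, with a ratio of -1.91 (-3.26 to -0.73) without the 5 highest of each library. Of 14 interferon gamma genes 2 were upward and 1 downward, again Irf1 (0.82, 0.73 to 0.91), Socs1 (0.89, 0.76 to 1.01) and Jak2 (-0.77, -1.0 to -0.54). Cd274, a known target of this pathway, had the ratio of 0.06 given above. Of 15 further ligands 0 were upward and 3 downward, among them Vsig4, an inhibitory ligand of resident macrophages (-1.71, -2.34 to -1.12, on 94 and 32 UMIs, but -0.91, -2.02 to 0.14, with thinned cells and -3.01 without the 5 highest cells), and Tnfsf14 (-0.72, -1.16 to -0.28).

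Among the dendritic gates, mature dendritic-like cells had Cd80 past the fold upward, with a log2 ratio of 1.18 (0.38 to 1.98) on 29 and 28 UMIs, and Cd274 downward, with -0.62 (-1.37 to 0.08) on 79 and 22 UMIs. The interval of Cd274 took in 0. Cd86 (-0.38), Cd40 (0.34), Pdcd1lg2 (0.37) and Tnfsf9 (-0.44) had intervals across 0 as well. A Cd80 UMI was found in 13.5% of these cells untreated and 36.0% with NAM after thinning. The median total was 9603 UMIs per cell untreated and 5230 with NAM. Some markers of the mature state moved with the library too: Ccl22 had 452 and 1581 CPM, Ccl17 had 34.8 and 546 CPM, Il4i1 had 174 and 445 CPM, and Ccr7 had 2250 and 3682 CPM. Others moved less, with 1388 and 1518 CPM for Fscn1, 152.5 and 156.8 for Socs2 and 300 and 364 for Relb. Their part in the result was not tested. Stat3 (0.98, 0.45 to 1.5), Il12b (1.02, 0.60 to 1.43) and Cd200 (0.72, 0.23 to 1.21) were also past the fold upward, and the inhibitor Nfkbia downward (-0.50, -0.72 to -0.29), in counts of 3 and 0 of 6 interferon gamma genes, 3 and 2 of 11 CD40 and NF-kB genes and 1 and 2 of 7 further ligands, where 14.1% of all genes were upward and 23.5% downward. Without the 5 highest cells of each library the ratio of Il12b was -0.69 (-3.14 to 1.17).

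In cDC1-like cells large differences rested on few cells. Cd274 and Pdcd1lg2 had too few UMIs to be counted against the fold. Cd274 had 29 UMIs in 15 of 29 cells untreated and 4 UMIs in 4 of 30 cells with NAM, that is 62.5 CPM (41.9 to 89.8) and 8.65 CPM (2.36 to 22.2). Pdcd1lg2 had 24 UMIs in 11 cells and 1 UMI, 51.8 CPM (33.2 to 77.0) and 2.16 CPM (0.0548 to 12.1). Cd40 had 131 CPM (100.6 to 169) and 64.9 CPM (43.8 to 92.6), a log2 ratio of -1.02 (-1.70 to -0.37). In the same cells 0 of 8 CD40 and NF-kB genes were past the fold upward (15.5% of all genes) and 7 downward (10.9%), among them Il12b, with 151 and 9 UMIs (-4.06, -5.22 to -3.10), and Traf1 (-1.14, -1.62 to -0.68).

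Of the cDC1-like cells, 8 of 29 untreated and 1 of 30 with NAM also passed the mature gate. Those 8 untreated cells held 377 of the gate's 378 Ccr7 UMIs, 21 of the 29 Cd274 UMIs, 21 of the 24 Pdcd1lg2 UMIs, 45 of the 61 Cd40 UMIs and 138 of the 151 Il12b UMIs. At 155 CPM (96.0 to 237) for both Cd274 and Pdcd1lg2 they overlapped the mature dendritic-like cells of that library. Their median total, 15620 UMIs, was close to the 15647 of the 21 other untreated cDC1-like cells. In cDC1-like cells outside the mature gate, Cd274 had 24.4 CPM (10.5 to 48.0, 8 UMIs) untreated and 8.88 CPM (2.42 to 22.7, 4 UMIs) with NAM. In those cells Cd40 had 48.7 CPM (27.9 to 79.1) and 46.6 CPM (28.9 to 71.3), Cd80 had 30.5 and 31.1 CPM, and Cd86 had 177 CPM (134 to 228) and 229 CPM (187 to 277). Without the cells in the mature gate, then, the Cd40 ratio was -0.064 in place of -1.02 and that of Traf1 0.035 in place of -1.14. The split was made after the values were seen.

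**Figure D5:**
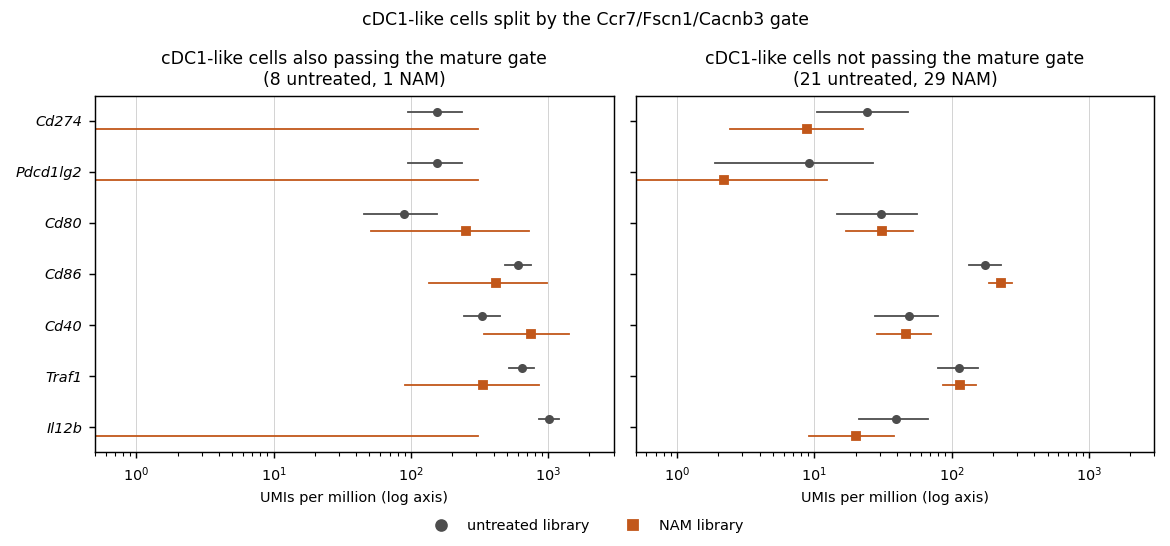
cDC1-like cells divided by whether they also passed the mature dendritic gate (Ccr7, Fscn1 and Cacnb3), in CPM on a log axis for 5 ligand genes, Traf1 and Il12b; circles are the untreated and squares the NAM library, lines are exact Poisson 95% intervals, and a line with no point is a count of 0. The 8 untreated cells in the mature gate stand at 155 for Cd274 and Pdcd1lg2, and the cells outside it overlap between the libraries in all 5 ligand genes.

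Osteoclast-like cells, the lowest gate for all 8 genes in both libraries except for Cd274 with NAM, had Lgals9 and Cd40 past the fold downward. Lgals9 had 48.8 CPM (40.9 to 57.8, 133 UMIs) untreated and 22.5 CPM (17.3 to 28.8, 63 UMIs) with NAM, a log2 ratio of -1.12 (-1.57 to -0.67). Cd40 had 26.1 CPM (20.4 to 32.9, 71 UMIs) and 15.4 CPM (11.1 to 20.7, 43 UMIs), a log2 ratio of -0.76 (-1.34 to -0.20). C1qa, a macrophage marker, had 738 and 499 CPM in the same gate, and its part in the result was not tested. Of 11 interferon gamma genes 1 was past the fold upward, Socs1 (0.82, 0.45 to 1.19), and 1 downward, Cmtm6 (-0.69, -1.16 to -0.23), against 3.87% and 8.73% of all genes. Of 14 CD40 and NF-kB genes 1 was upward, Traf5 (1.10, 0.46 to 1.77), and 2 downward, Nfkb1 (-0.79, -1.09 to -0.50) and the activation marker Cd83 (-0.60, -0.89 to -0.32). Traf5 rested on 30 and 66 UMIs and was not recomputed under other settings.

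Except for Havcr2, the receptors of these ligands had higher levels in lymphocytes than in macrophage-like or mature dendritic-like cells. Tnfrsf9, which encodes 4-1BB, had 989 CPM untreated and 1095 CPM with NAM in lymphocytes, Pdcd1 (PD-1) had 301 and 424 CPM, Cd28 had 200 and 215 CPM, Ctla4 had 185 and 229 CPM and Icos had 301 and 282 CPM. Cd40lg was nearly absent, with 11 and 3 UMIs. Havcr2, which encodes TIM-3, had 33.1 and 36.1 CPM in macrophage-like cells and 38.0 and 50.4 CPM in lymphocytes. It was the receptor with the closest levels between these classes, and monocyte-like cells had more, 110 and 96.8 CPM. Mature dendritic-like cells had 42.8 and 138 CPM of Pdcd1, on 16 and 22 UMIs. In macrophage-like cells 2 of 5 receptors were past the fold upward and 1 downward (2.52% and 7.2% of all genes). Pdcd1 had 18 and 43 UMIs (1.10, 0.27 to 1.98) and Cd28 had 34 and 21 (-0.85, -1.71 to -0.03). Tnfrsf9 was upward, with 19.8 CPM (406 UMIs) untreated and 39.0 CPM (895 UMIs) with NAM, a log2 ratio of 0.98 (0.81 to 1.15). The T cell gene Cd3e had 1.56 and 1.88 CPM in those cells. Without the macrophages that held a lymphocyte marker UMI, Cd3e among the markers, the ratio of Tnfrsf9 was 1.13 (0.95 to 1.32). Whether T cell transcripts contributed in another way was not tested. In monocyte-like cells Tnfrsf9 had 33.1 and 39.4 CPM (0.25, -0.38 to 0.89). Tnfrsf9 was also past the fold upward in osteoclast-like and mature dendritic-like cells, with intervals clear of 0. The log2 ratio was 1.23 in osteoclast-like cells, on 27 and 65 UMIs. In mature dendritic-like cells it was 0.84, on 46 and 35 UMIs. These ratios were not recomputed under other settings.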

How the data were processed

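The deposited values are raw UMI counts per gene and cell. The authors made these counts from 10x Genomics Single Cell 3′ libraries with Cell Ranger 2.1.0 on mm10, and left out cells under 1000 genes, under 3000 UMIs or over 10% mitochondrial UMIs. The annotation version is not given in the sources used here. Doublets were not removed.

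The 8 genes, the gate markers and the gene lists were chosen with earlier results of these data known. The UMI thresholds of the gates were set from the distributions of the marker genes without use of the 8 genes: lymphocytes (at least 3 UMIs of Cd3d, Cd3e, Cd3g, Cd2, Ncr1, Klrb1c, Cd79a and Ms4a1) and other leukocytes were set aside first. Cells with under 20 C1q UMIs then entered the cDC1, mature, Cd209a (Cd209a, Flt3 and Zbtb46) and Ly6c2 gates in that order, at 3 UMIs each. Osteoclast-like cells came next, then macrophages: proliferating (5 UMIs of Birc5, Ube2c, Top2a, Mki67 and Cdk1), interferon-high (20 of Ifit3, Rsad2, Isg15, Ifit1 and Ifit2), Vcam1/Dnase1l3 (3), Tgfbi/Htra3/Ccr2 (10) and other macrophages. Another macrophage subset and a few genes are not reported here. The remaining cells with low C1q were left ungated.

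Counts were summed per library and gate and divided by the gate's total. Exact 95% intervals are Poisson for levels, Clopper-Pearson for shares and conditional binomial for ratios. They cover counting error and not the spread between mice. The ratio script was tested on simulated data. Named besides the 8 genes were the 3 genes per member with the highest Pearson r of log2(CPM + 1) over gates and libraries (at least 100 UMIs, 10003 genes, of which gate markers and members were not named), and list genes with at least 100 UMIs and a log2 ratio past 0.5, at most 4 each way. Receptors, check markers and globin genes were read besides, as were Ebi3 in monocyte-like and Traf5 in osteoclast-like cells, which had under 100 UMIs. Coordinates come from GENCODE vM21 (GRCm38). Alternatives changed the scaling, depth, gates, cells, minimum and fold. Python 3.11.15, NumPy 2.4.6, SciPy 1.17.1 and pandas 2.3.3 were used.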

Additional observations from a re-analysis of the deposited data

Results flagged for a closer look

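Cd40 had opposite directions between the libraries in different classes, with intervals that did not take in 0. Its log2 ratio, NAM over untreated, was 0.26 in macrophage-like cells, -0.98 in Ly6c2 monocyte-like cells, -1.02 in cDC1-like cells and -0.76 in osteoclast-like cells. With 1 library per group the difference between classes was not tested. The cDC1-like value became -0.064 without the cells that also passed the mature dendritic gate, while the monocyte-like value lay between -1.03 and -0.85 over the settings tried. The osteoclast-like interval took in 0 with thinned cells (-0.23, -1.49 to 1.02), without the 5 highest cells (-0.53, -1.30 to 0.22) and with doubled gate thresholds (-0.57, -1.21 to 0.05).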

How the results depend on the processing

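No ratio of a member past the fold in a class changed direction under the settings run, and 213 of 228 recomputed ratios of members in classes stayed within the counting interval of the reported value. Exceptions past the fold were Tnfsf9 in monocyte-like cells with doubled gate thresholds (-1.31), Cd80 in mature dendritic-like cells (2.24) and Cd40 in cDC1-like cells (-2.86) with cells thinned to 3000 UMIs, on 21 and 8 UMIs, and Cd40 in cDC1-like cells without those in the mature gate (-0.064). That setting and the one without globin-bearing cells were added after seeing the data.

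In the macrophage subsets described, the 6 ratios past the fold kept their direction in 48 of 48 recomputed values and stayed past it in 41. With thinned cells Cd80 (0.26), Cd40 (0.38) and Icosl (-0.36) in Vcam1/Dnase1l3 macrophages were under it. Of the recomputed values of list and receptor genes past the fold with at least 100 UMIs, 224 of 229 kept the direction. The others were Il12b in macrophage-like cells with thinned cells (-0.24) and without the 5 highest cells (-1.91), Il12b in mature dendritic-like cells without the 5 highest cells (-0.69), Nfkbia in cDC1-like cells with thinned cells (0.16) and Traf1 in cDC1-like cells without those in the mature gate (0.035). In mature dendritic-like cells Nfkbia was under the fold in 4 settings and Cd200 in 2.

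Counts of members past the fold were less stable. In macrophage-like cells (2) the count was 1 with median-of-ratios scaling, with gates on thinned markers or without the cells of highest UMI total, 0 with thinned cells or without globin-bearing cells, 5 at a fold of 0.25 and 0 at a fold of 1. In monocyte-like cells (2) it was 3 with thinned cells, 4 at a fold of 0.25 and 0 at 1. In mature dendritic-like cells (2) it was 0 with thinned cells, 1 without the 5 highest cells, at a minimum of 100 UMIs or at a fold of 1, 3 with doubled thresholds or a minimum of 20 UMIs, 5 without cells bearing a lymphocyte UMI, and 6 at a fold of 0.25. In cDC1-like cells (1) it was 0 with thinned cells, doubled thresholds, gates on thinned markers, the lower C1q limit, a minimum of 100 UMIs, or without the 5 highest cells or those in the mature gate, 2 without the cells of highest UMI total or at a fold of 0.25, and 5 at a minimum of 20 UMIs. In Cd209a dendritic-like cells (0) it was 1 with thinned cells, doubled thresholds or without the 5 highest cells, and 2 at a minimum of 20 UMIs or a fold of 0.25. In osteoclast-like cells (2) it was 0 with thinned cells, 1 at a fold of 1, and 3 without the 5 highest cells, without the cells of highest UMI total, at a minimum of 20 UMIs or at a fold of 0.25. With thinned cells the ratios past the fold in macrophage-like cells became 0.45 (Pdcd1lg2) and -0.47 (Icosl), and the members past it in mature dendritic-like, cDC1-like and osteoclast-like cells had under 50 UMIs. For the other settings the cause was not tested. The gate with the highest level stayed first in 38 of 48 cases.

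No paired analysis was possible because each group is 1 library. The dendritic gates hold 25 to 37 cells per library, so their values rest on few UMIs.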

Other observations

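Pdcd1lg2 had a level in lymphocytes that overlapped that of the mature dendritic-like cells and lay far above that of the macrophages. Lymphocytes had 98.9 CPM (83.8 to 116, 151 UMIs in 100 of 273 cells) untreated and 97.2 CPM (82.9 to 113, 164 UMIs in 104 of 310 cells) with NAM, and 7.64 and 10.9 CPM were found in macrophage-like cells. Cells with Cd3 genes and no Ncr1 had 82.6 CPM (66.0 to 102) and 92.5 CPM (76.9 to 110), and cells with Ncr1, an NK cell receptor, and no Cd3 genes had 143 CPM (103 to 194) and 127 CPM (75.1 to 200). Among the Cd3 cells, those with Cd8 genes had 77.2 and 99.9 CPM and those with Foxp3, the regulatory T cell factor, had 48.4 and 66.4 CPM. Those with neither had 128.5 CPM (89.0 to 180) untreated and 82.4 CPM (52.8 to 123) with NAM. Cd86 was low in the same lymphocytes, 33.4 and 26.1 CPM, against 131 and 158 CPM in macrophage-like cells. The lymphocyte groups were chosen with their marker genes after the myeloid values were seen, and whether doublets contribute was not tested.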
